A study of Mus musculus with 6 samples.

Results

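Interferon-response genes are genes whose transcription rises when a cell is exposed to interferon, and 36 of them, listed by name, were examined in open-chromatin maps of 3 mouse T helper subsets. All 36 were found by symbol among the annotated mouse genes, which include 21938 protein-coding genes. ATAC-seq, in which the Tn5 transposase cuts and tags accessible DNA, had been performed on Th9, Th2 and Th17 cells, with 2 libraries per subset, replicates 1 and 3, for 6 libraries in all. Wild-type C57BL6/J naive CD4+ T cells from spleen were activated through CD3 and CD28 in culture and collected on day 5. Th2 cultures received IL-4 and IL-2, Th9 cultures received IL-4, IL-2 and TGF-β1, and Th17 cultures received IL-6, TGF-β1, IL-23 and IL-1β with antibodies against IL-4 and IL-2. A blocking antibody to IFN-γ was present in all 3 kinds of culture. No interferon-treated or untreated naive cells were analysed here, so the comparisons are between subsets. Nothing stated whether the replicates came from separate animals or cultures, so the p-values measure the spread between these libraries, which may be technical.

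Interferons signal through paired receptor chains and the JAK kinases to transcription factors of the STAT family. Type I interferons, the IFN-α and IFN-β family, act mainly through a complex with STAT2 and IRF9 that binds the interferon-stimulated response element, whose core is a pair of GAAA steps set apart by a short gap. IFN-γ acts mainly through a palindrome of TTC and GAA. In T cells these genes give protection against viruses and intracellular microbes, and several of them are kept at a low basal level by tonic interferon.

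A promoter counted as open in a library if at least 1 bp of a peak fell into its window, which ran from 1000 bp before any annotated start to 100 bp past it. The strength of a promoter was the percentile of the fold enrichment of its strongest peak among all peaks of the same library. Of the 36 genes, 32 (88.9%) were open in all 6 libraries, against 58.7% of protein-coding genes. No library had a promoter peak for Oas2 or Cxcl9 (5.56% of the genes, against 28.0% of protein-coding genes). Oas1a and Ifi44 were called in some libraries. Ifi44 was the only gene with a peak in both libraries of at least 1 subset and in neither of another, which makes 2.78%, against 3.68% of protein-coding genes. None of the 32 passed the test of peak strength between subsets. Isg15, Gbp5, Irgm1 and Dhx58 passed a test of peak width that was chosen once the peak lists were known. Most of these width calls were lost when a library was left out, and all were lost with the replicate number as a block.

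The promoter windows held many copies of the interferon-response word GAAANNGAAA, where N is any base. The windows of 27 of the 36 genes (75.0%) had at least 1 copy on either strand, against 18.0% of protein-coding genes. Counted by single windows of 1101 bp, the shares were 69.0% and 14.0%. The STAT word TTCNNNGAA was found in 47.2% of the genes and in 36.0% of protein-coding genes. Overlapping copies were counted separately, and a base could belong to both words. The windows were also poor in CpG, with a median ratio of observed to expected CpG of 0.247, against 0.422 for all protein-coding genes. Among genes open in all 6 libraries the medians were 0.262 and 0.569.

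The stretches below are from GRCm38.p6, the assembly that mm10 displays, written 5′ to 3′ along the gene's strand. Capitals mark the word GAAANNGAAA as it reads on that strand or on the opposite strand, and overlapping copies run together. The first set comes from the 4 genes that passed the test of peak width. The stretch of Isg15 lay upstream of its start. That of Gbp5 lay upstream of the only start in the basic annotation, used here, and within an intron of a longer non-coding transcript of Gbp5 in the full annotation. The stretch of Dhx58 ran across the start into the first exon, and that of Irgm1 reached into an annotated exon of Irgm1.
Isg15, chr4:156200860-156200911, minus strand: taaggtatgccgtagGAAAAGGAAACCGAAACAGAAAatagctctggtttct
Gbp5, chr3:142496754-142496793, plus strand: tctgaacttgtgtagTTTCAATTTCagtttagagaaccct
Irgm1, chr11:48871420-48871465, minus strand: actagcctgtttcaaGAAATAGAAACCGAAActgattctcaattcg
Dhx58, chr11:100704251-100704290, minus strand: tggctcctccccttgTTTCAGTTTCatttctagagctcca

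In Isg15, which encodes a ubiquitin-like protein joined to other proteins during infection, 3 copies ran together between -78 and -66 bp from the start, counted at the first base of each copy. Gbp5 had 1 copy at -131 bp, Irgm1 had 2 overlapping copies at -30 and -24 bp from its nearest start, and Dhx58 had 1 copy at -4 bp. Every one of these copies lay under a peak in all 6 libraries.

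The next set shows genes with several copies, and a pair of related genes. Ifit1 and Ifit3 encode proteins that bind foreign RNA, Usp18 removes ISG15 from its targets, and Zbp1 senses nucleic acid in the Z form. Igtp and Irgm2 are immunity-related GTPases that lie next to each other on chromosome 11. All of these stretches were upstream of the gene's own start, although the one of Irgm2 was also within an intron of a longer Irgm2 transcript.
Ifit1, chr19:34640770-34640828, plus strand: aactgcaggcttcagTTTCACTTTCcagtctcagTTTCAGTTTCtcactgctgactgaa
Ifit3, chr19:34583358-34583431, plus strand: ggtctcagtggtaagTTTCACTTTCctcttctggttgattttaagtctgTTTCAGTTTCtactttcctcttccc
Usp18, chr6:121245808-121245871, plus strand: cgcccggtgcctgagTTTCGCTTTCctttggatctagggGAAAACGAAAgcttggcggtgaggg
Zbp1, chr2:173218944-173219037, minus strand: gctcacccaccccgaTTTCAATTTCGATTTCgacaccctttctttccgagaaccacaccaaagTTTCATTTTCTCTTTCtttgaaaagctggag
Igtp, chr11:58199507-58199546, plus strand: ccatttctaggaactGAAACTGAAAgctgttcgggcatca
Irgm2, chr11:58214898-58214937, plus strand: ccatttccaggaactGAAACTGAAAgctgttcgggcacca

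The stretches of Igtp and Irgm2 were the same at 38 of 40 bases. Zbp1 had 4 copies between -99 and -45 bp, all under a peak in all 6 libraries. The windows of the 36 genes held 42 distinct copies, 2 of them shared by Igtp and Irgm2. Of these, 33 started between 200 bp upstream and 50 bp downstream of a start, and 21 genes had a copy there. A peak lay over 35 of the copies in all 6 libraries, and over 3 copies in none. In all, 23 genes had a copy under a peak in all 6 libraries. The place and peak cover of copies were not counted in other genes, and 32 of the 36 promoters were open in all 6 libraries. These counts therefore do not set the copies apart from the rest of the windows.

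**Figure D1:**
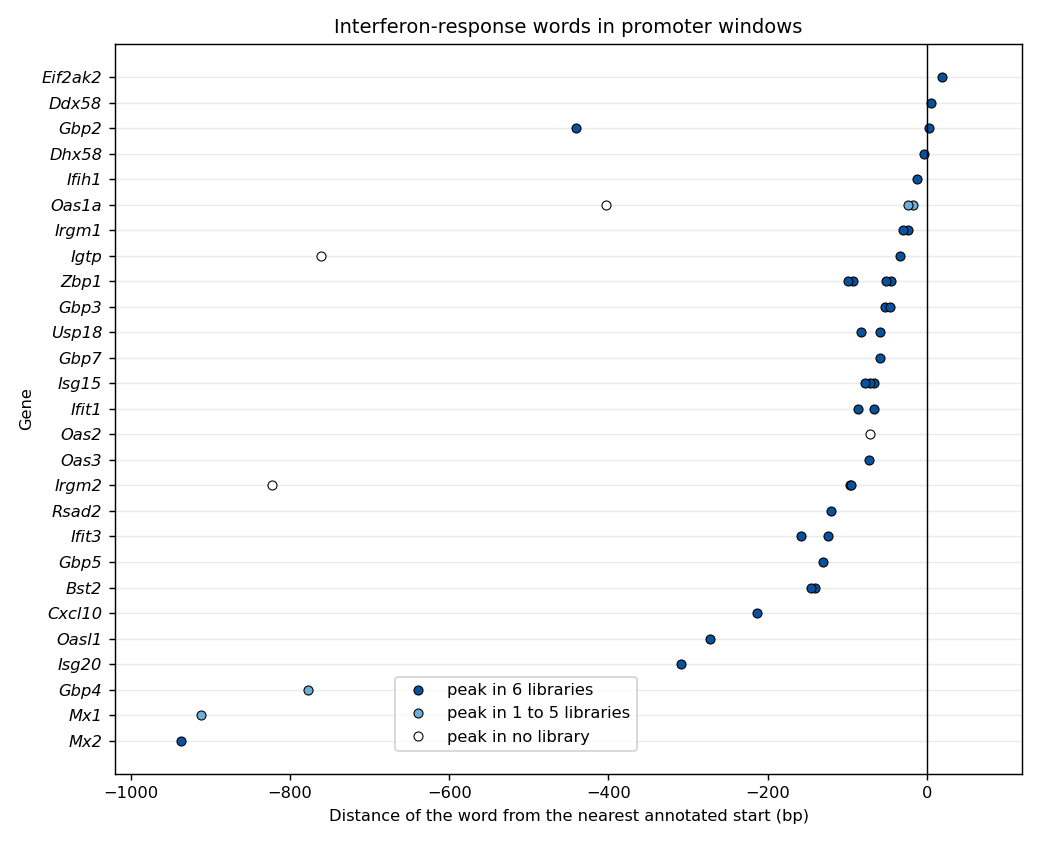
Each point is 1 copy of the interferon-response word in the promoter windows of the 27 genes that had it (copies shared by Igtp and Irgm2 are drawn for both), placed by its distance in bp from the nearest annotated start. Fill gives the number of libraries with a peak over the copy, and most copies sit within 200 bp upstream of the start under a peak in all 6 libraries.

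The last set shows promoters that were not open in every library. Oas1a and Oas2 encode synthetases of oligoadenylates, which activate RNase L. Oas1a had a pair of overlapping copies at -24 and -18 bp, and its stretch ran into the first exon. Oas2 had 1 copy upstream at -71 bp that lay under no peak. Ifi44, an interferon-induced gene, had no copy of the word, so 200 bases across its start are shown with every single GAAA or TTTC in capitals. Several copies of TTTC lay close together there but not at the spacing searched.
Oas1a, chr5:120907515-120907560, minus strand: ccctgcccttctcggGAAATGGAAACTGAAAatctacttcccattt
Oas2, chr5:120749900-120749939, minus strand: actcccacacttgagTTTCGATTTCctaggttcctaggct
Ifi44, chr3:151749911-151750110, minus strand: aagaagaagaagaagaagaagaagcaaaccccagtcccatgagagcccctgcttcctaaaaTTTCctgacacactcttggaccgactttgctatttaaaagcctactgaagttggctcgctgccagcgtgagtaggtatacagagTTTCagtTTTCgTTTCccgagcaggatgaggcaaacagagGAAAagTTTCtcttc

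Each library had 32 to 34 of the 36 genes open. The lists held 100317 to 142213 peaks, and the fragment coverage of the background, recovered from the lists, ran from 5.65 in replicate 1 of Th9 to 17.7 in replicate 3 of Th17. The lowest fold in a list was 2.11 in replicate 1 of Th9 and at most 1.83 in the others, so the lists did not reach down to the same fold. Among markers of the labelled cells, Cd3e and Cd3d were open in all 6 libraries. Cd4 was called in 4 libraries. The Il9 promoter was open in both Th9 and both Th2 libraries, with higher percentiles in Th9 (88.6 and 90.7) than in Th2 (37.1 and 44.4). Il17f was called only in the 2 Th17 libraries. Of the markers of B cells, myeloid cells and NK cells reported here, 6 had no promoter peak, and Klrb1c had a peak in 1 library, at percentile 28.1.

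The promoters of the 32 open genes stood lower in their lists than open promoters in general. The median of their mean percentiles was 87.8, with quartiles at 81.7 and 91.1, while all 12873 open protein-coding genes had a median of 93.1 and quartiles at 85.3 and 96.8. In 13 of the 32 the mean percentile was below that lower quartile, and in 2 it was above that median. The median over the 32 genes was below that over all open genes in each of the 6 libraries, at 84.7 to 89.2 against 92.3 to 94.2. In 18 of the 32 all 6 percentiles were at least 80. The fold of a broad peak is a mean over its whole length, so a wide peak with a narrow summit stands lower than its summit would. The part of this in the lower percentiles was not tested. Over the 6 libraries the median width was 1233 to 1915 bp for the 32 genes and 1282 to 1681 bp for all open genes.

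The 3 highest were Irf9, Zbp1 and Gbp7. Irf9, the DNA-binding partner of STAT2, stood at 98.9 and 96.9 in Th9 (replicates 1 and 3 in this and the following lists), against 96.7 and 95.7 in Th2 and 98.0 and 96.9 in Th17. Zbp1 stood at 93.8 and 91.4 in Th9, against 96.5 and 93.9 in Th2 and 93.3 and 92.9 in Th17. Gbp7, a guanylate-binding GTPase, stood at 91.5 and 89.8 in Th9, against 93.9 and 95.3 in Th2, with 92.7 and 94.8 in Th17. The Th2 libraries were the lowest for Irf9 and the highest for Zbp1. For Gbp7 both Th9 libraries were below all 4 others.

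The 3 lowest were Dhx58, Ifit3 and Isg15. Dhx58, which encodes the RNA sensor LGP2, stood at 75.8 and 67.6 in Th9, against 70.2 and 64.8 in Th2 and 72.5 and 54.8 in Th17. Ifit3 stood at 79.7 and 71.8 in Th9, against 77.8 and 66.6 in Th2 and 76.0 and 73.3 in Th17. In both genes the values of the subsets overlapped. The peak of Ifit3 was upstream and covered the annotated start itself in only 2 libraries. Isg15 stood at 84.4 and 83.7 in Th9, against 74.5 and 67.8 in Th2 and 80.7 and 68.8 in Th17, so both Th9 libraries were above the other 4.

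**Figure D2:**
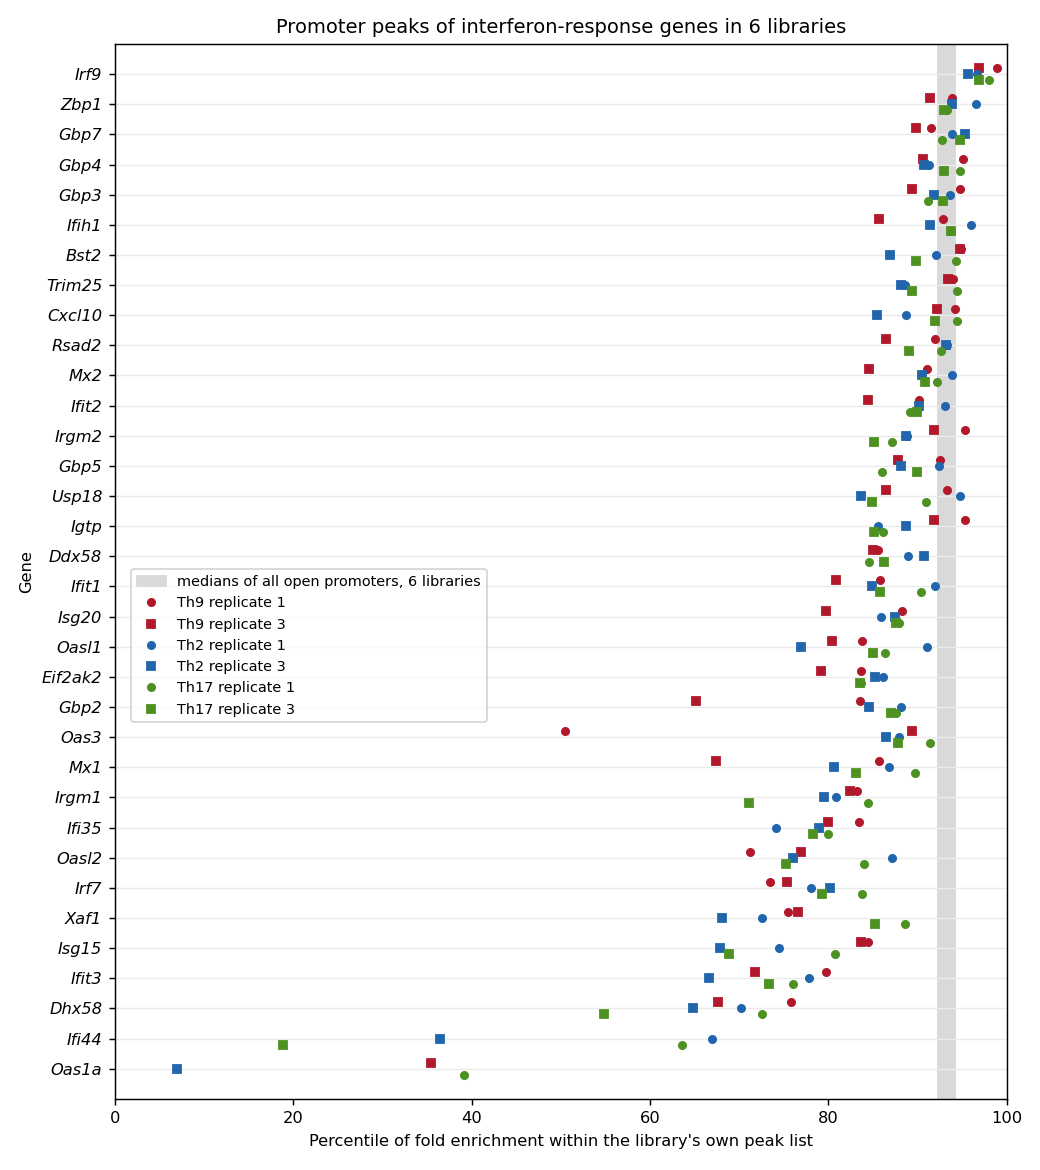
Percentile of the strongest promoter peak among all peaks of its own library for the 34 genes called in at least 1 library, with 1 point per library, color for the subset and shape for the replicate. The grey band spans the medians of all open promoters in the 6 libraries (92.3 to 94.2), and most points lie to its left.

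The promoter peaks of Ifit1 and Gbp4 also reached the windows of Ifit1bl2 and of Gbp8 and Gbp9. Ifit1 and Ifit1bl2 had the same strongest peak in all 6 libraries, as did Gbp4 and Gbp8. Within these pairs the genes cannot be told apart by their peaks. Gbp9 had a stronger peak than Gbp4 in both Th2 libraries (93.6 and 92.5, against 91.3 and 90.7) and in replicate 3 of Th17 (94.2 against 92.9). By family, the Ifit genes were open in all 6 libraries (3 of 3, percentiles 66.6 to 93.1), as were the guanylate-binding proteins (5 of 5, 65.1 to 95.3), the immunity-related GTPases (3 of 3, 71.1 to 95.3) and the dynamin-like Mx GTPases (2 of 2, 67.4 to 93.8). The 5 sensors of nucleic acid, Ifih1, Ddx58, Dhx58, Zbp1 and the kinase Eif2ak2, were all open, at 54.8 to 96.5. Of the transcription factors, Irf7, which amplifies the interferon response, stood at 73.4 to 83.8, below Irf9 in every library. Isg15, Usp18 and Trim25, which belong to the ISG15 system, were open between 67.8 and 94.8. Of the chemokines that attract T cells through CXCR3, Cxcl10 was open in all 6 libraries at 85.4 to 94.4 and Cxcl9 in none. Of the other effectors, Isg20, Rsad2, Ifi35, Bst2 and Xaf1 were open, and Ifi44 was open in 4 libraries.

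The Oas family had the most gaps, with 3 of 5 open in all 6 libraries. Oas3, Oasl1 and Oasl2 were open, with percentiles from 50.5 to 91.4. Oas1a was called in replicate 3 of Th9 at percentile 35.4, in replicate 3 of Th2 at 6.92 and in replicate 1 of Th17 at 39.1, so each subset had 1 library with a peak and 1 without. These were narrow peaks of 701, 625 and 345 bp over the start. Oas1a has near-identical copies, such as Oas1g, which was called in no library. The authors excluded reads of low mapping quality, and the part of this in the Oas1a calls was not tested. In Cxcl9 a peak lay past the window, from 445 to 837 bp into the gene in replicate 1 of Th9 (percentile 77.4), from 459 to 813 bp in replicate 3 of Th9 (71.8) and from 453 to 849 bp in replicate 1 of Th2 (64.2). The remaining Th2 library and both Th17 libraries had no peak there.

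At Ifi44 both Th2 libraries showed a promoter peak, at percentiles 66.9 and 36.5, as did both Th17 libraries, at 63.6 and 18.9, while neither Th9 library did. The peaks ran across the start into the gene and were 1642 and 1420 bp wide in Th2 and 1869 and 1899 bp in Th17. Replicate 1 of Th9 had a peak farther inside the gene, from 908 to 1358 bp, at percentile 47.0, and replicate 3 of Th9 had none between -2371 and 2597 bp. The sequence around this start is the one printed above with single GAAA and TTTC steps. Replicate 3 gave the lower percentile in both subsets that had the peak. The difference in calls was lost with windows of 2000 bp on either side, with a −log10 q of at least 5 and with a fold of at least 4.

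Whether promoter strength differed between subsets was tested with limma on the normal score of the percentile, the value of a standard normal variable that has that percentile, over 12876 genes open in all 6 libraries, with Benjamini-Hochberg adjustment per comparison. None of the 32 genes passed an adjusted p of 0.05 in any comparison. Over all fitted genes the share past it was 0.0% for Th9 against Th2, 0.179% for Th9 against Th17 and 0.256% for Th2 against Th17. At an unadjusted p of 0.05 the counts were 8, 5 and 2 of the 32 genes, against 2701, 1610 and 1618 of all 12876. The median over the 32 genes was -0.065 for Th9 minus Th2, -0.05 for Th9 minus Th17 and 0.03 for Th2 minus Th17, against 0.068, 0.047 and -0.021 over all fitted genes. The 95% interval of a gene's difference, which is not adjusted for the number of genes, had a median half-width of 0.31. With 2 libraries per subset small differences could go undetected. The half-width is not a strict limit, since at Gbp7 the Th9 minus Th2 difference of -0.29 had an interval of -0.56 to -0.02. Larger differences did not pass the adjusted test either, such as -0.59 at Xaf1 for Th2 minus Th17 (adjusted p 0.135 by limma). Whether these are real differences between subsets is not known. An exact permutation test of 2 libraries against 2 cannot give a two-sided p below 0.333.

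Both Th9 libraries were above both Th2 libraries in 10 of the 32 genes (31.2%, against 36.7% of all fitted genes) and below in 8 (25.0%, against 17.1%). Both Th9 libraries were above both Th17 libraries in 5 genes (15.6%, against 26.7%) and below in 7 (21.9%, against 13.9%). Both Th2 libraries were above both Th17 libraries in 6 genes (18.8%, against 22.7%) and below in 6 (18.8%, against 26.1%). Both Th9 libraries were above all 4 others at Isg15, Igtp, Irgm2, Ifi35 and Bst2, and below all 4 at Irf7, Gbp2 and Gbp7. Igtp and Irgm2 had the same strongest peak in both Th9 libraries. The share of all fitted genes with either pattern is not given here, so these lists are a description only.

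Igtp, an immunity-related GTPase that helps destroy the vacuoles of intracellular parasites, had the largest positive difference between Th9 and Th17. It stood at 95.3 and 91.8 in Th9, against 85.5 and 88.7 in Th2 and 86.1 and 85.1 in Th17, with no overlap between Th9 and the other subsets. The normal score was higher in Th9 by 0.47 ± 0.13 (SE) than in Th17, with a 95% interval of 0.18 to 0.76 and an adjusted p of 0.198 by limma. Against Th2 it was higher by 0.40 (0.11 to 0.69, adjusted p 0.154 by limma). Irgm2 shares this peak, because its longest transcript starts close to the start of Igtp. At the separate start of Irgm2, the site of the Irgm2 stretch printed above, the peak stood at 94.1 and 90.0 in Th9, against 88.8 and 87.1 in Th2 and 87.1 and 82.9 in Th17, with the Th9 libraries again the highest.

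Xaf1, a partner of the apoptosis inhibitor XIAP, gave the smallest adjusted p of the 32 genes. It stood at 75.5 and 76.6 in Th9, against 72.6 and 68.1 in Th2 and 88.6 and 85.2 in Th17, with both Th17 libraries above the rest. The score of Th2 minus Th17 was -0.59 (95% interval -0.90 to -0.28, adjusted p 0.135 by limma). The Th2 peaks were the widest, at 2666 and 2683 bp, against 1383 and 689 bp in Th9 and 1678 and 864 bp in Th17.

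At Oas3 and Gbp2 a single Th9 library stood apart. Oas3, the largest of the oligoadenylate synthetases, stood at 50.5 and 89.4 in Th9, against 87.9 and 86.5 in Th2, with 91.4 and 87.8 in Th17. The score of Th9 minus Th17 was -0.63 (-1.26 to -0.01, adjusted p 0.389 by limma). In replicate 1 of Th9 the accessible stretch was called as separate peaks, the promoter peak from -1757 to 128 bp and a stronger peak at percentile 91.2 from 878 to 2878 bp. In the other 5 libraries 1 peak ran from upstream of the start to at least 2501 bp. With windows of 2000 bp on either side the difference was 0.03, without replicate 1 of Th9 it was -0.02, and without replicate 3 of Th9 it was -1.25 (adjusted p 0.00489 by limma). The last value sets the outlying library alone against Th17 and takes its spread from the other subsets, so it is no sign of a difference between subsets. Gbp2 stood at 83.5 and 65.1 in Th9, against 88.1 and 84.5 in Th2 and 87.6 and 87.0 in Th17, where replicate 3 of Th9 was the lowest and also had the narrowest peak, 1862 bp against 2921 to 3152 bp in the other libraries. Without replicate 1 of Th9 the score of Gbp2 for Th9 minus Th2 was -0.71 (adjusted p 0.033 by limma), against -0.42 with all libraries, and there too Th9 was 1 library assumed to vary like the others.

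**Figure D3:**
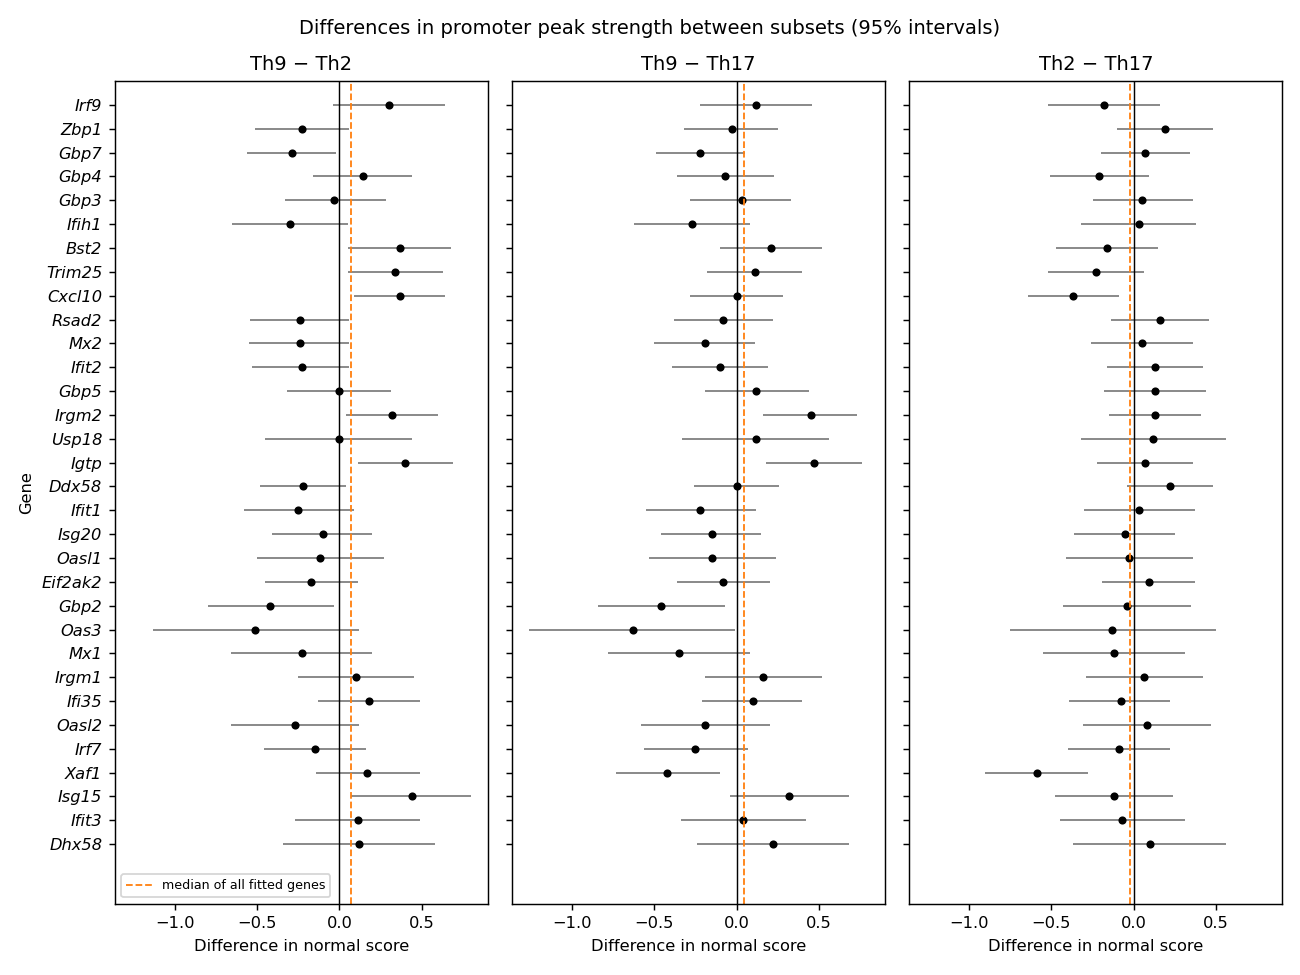
Difference in normal score between subsets, with 95% intervals from limma, for the 32 genes open in all 6 libraries, ordered by mean percentile with the highest at the top. The dashed line is the median of all 12876 fitted genes, and no gene passed an adjusted p of 0.05, although some intervals do not reach 0.

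The same test on the log2 width of the peak, chosen after the data were seen, gave 4 genes. Between Th9 and Th2, 3 of the 32 passed, against 2.76% of all fitted genes. Between Th9 and Th17, 1 passed, against 0.482%. Between Th2 and Th17, 2 passed, against 1.86%. Peaks were narrower in Th9 than in Th2 in general, with a median difference of -0.176 on the log2 scale over all fitted genes, and 346 of the 356 genes called were narrower in Th9. The median over the 32 genes was -0.234. With Th2 wider than Th17 by a median of 0.146 over all genes, the 32 genes had a median of 0.222. Over the 32 genes the median width was 1324 and 1374 bp in Th9, 1904 and 1915 bp in Th2, and 1233 and 1240 bp in Th17.

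The Isg15 peak was 373 and 403 bp wide in Th9, 952 and 1071 bp in Th2, and 866 and 880 bp in Th17. The Th9 peaks were the narrow ones, and no library overlapped between Th9 and the others. The log2 difference of Th9 minus Th2 was -1.38 ± 0.13 (SE; adjusted p 0.0221 by limma), and that of Th9 minus Th17 was -1.17 (adjusted p 0.0582 by limma). On the upstream side the peak began at -183 and -225 bp in Th9, against -785 and -720 bp in Th2 and -674 and -708 bp in Th17. The run of GAAA copies printed above lay inside the peak in all 6 libraries.

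The Gbp5 peak was 1736 and 1589 bp wide in Th9, 2828 and 2871 bp in Th2, and 2767 and 2752 bp in Th17. Gbp5 promotes inflammasome assembly. Th9 was again the narrow subset, by -0.78 ± 0.09 against Th2 (adjusted p 0.033 by limma) and by -0.73 against Th17 (adjusted p 0.0666 by limma). The peak began at -817 and -677 bp in Th9 and between -1828 and -1667 bp in the other 4 libraries. In replicate 3 of Th9 a separate peak lay between -1667 and -1418 bp, in the part that the other subsets had within the main peak. With all annotated starts the Th9 minus Th2 difference was again -0.78 but did not pass (adjusted p 0.626 by limma), because in replicate 1 of Th17 a peak of 640 bp near the farther start stood slightly higher (86.2 against 86.0) and was taken in place of the main peak.

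The Irgm1 peak was 1524 and 1658 bp wide in Th9, 4128 and 4257 bp in Th2, and 1369 and 1752 bp in Th17. Irgm1, a regulator of the other immunity-related GTPases and of autophagy, was therefore wide in Th2 alone, by 1.44 against Th17 (adjusted p 0.0349 by limma), with a difference of -1.40 ± 0.15 for Th9 minus Th2 (adjusted p 0.0294 by limma). In Th2 a single peak ran from -3661 and -3635 bp across the start. In Th9 and Th17 a separate peak began between -3568 and -3502 bp, so the upstream site was open in all 6 libraries and joined to the promoter only in the Th2 calls.

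The Dhx58 peak was 2038 and 2769 bp wide in Th9, 2052 and 2215 bp in Th2, and 421 and 497 bp in Th17. Th17 was the narrow subset, with log2 differences of 2.38 ± 0.19 for Th9 minus Th17 (adjusted p 0.0438 by limma) and 2.22 for Th2 minus Th17 (adjusted p 0.0275 by limma). The difference was on the gene side, where the Th9 and Th2 peaks reached 1760 to 2237 bp past the start and the Th17 peaks 265 and 248 bp. Replicate 1 of Th17 had a separate weaker peak from 973 to 1722 bp at percentile 38.6, and replicate 3 of Th17 had none. The sizes of these differences changed little when each library was left out in turn, from -1.47 to -1.30 for Isg15 and from 2.16 to 2.60 for Dhx58 between Th9 and Th17, but most calls were lost. Gbp5 and Irgm1 did not pass whichever library was left out, and Dhx58 likewise between Th9 and Th17. Isg15 passed only without replicate 3 of Th9, and Dhx58 passed between Th2 and Th17 only without either Th9 library.

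**Figure D4:**
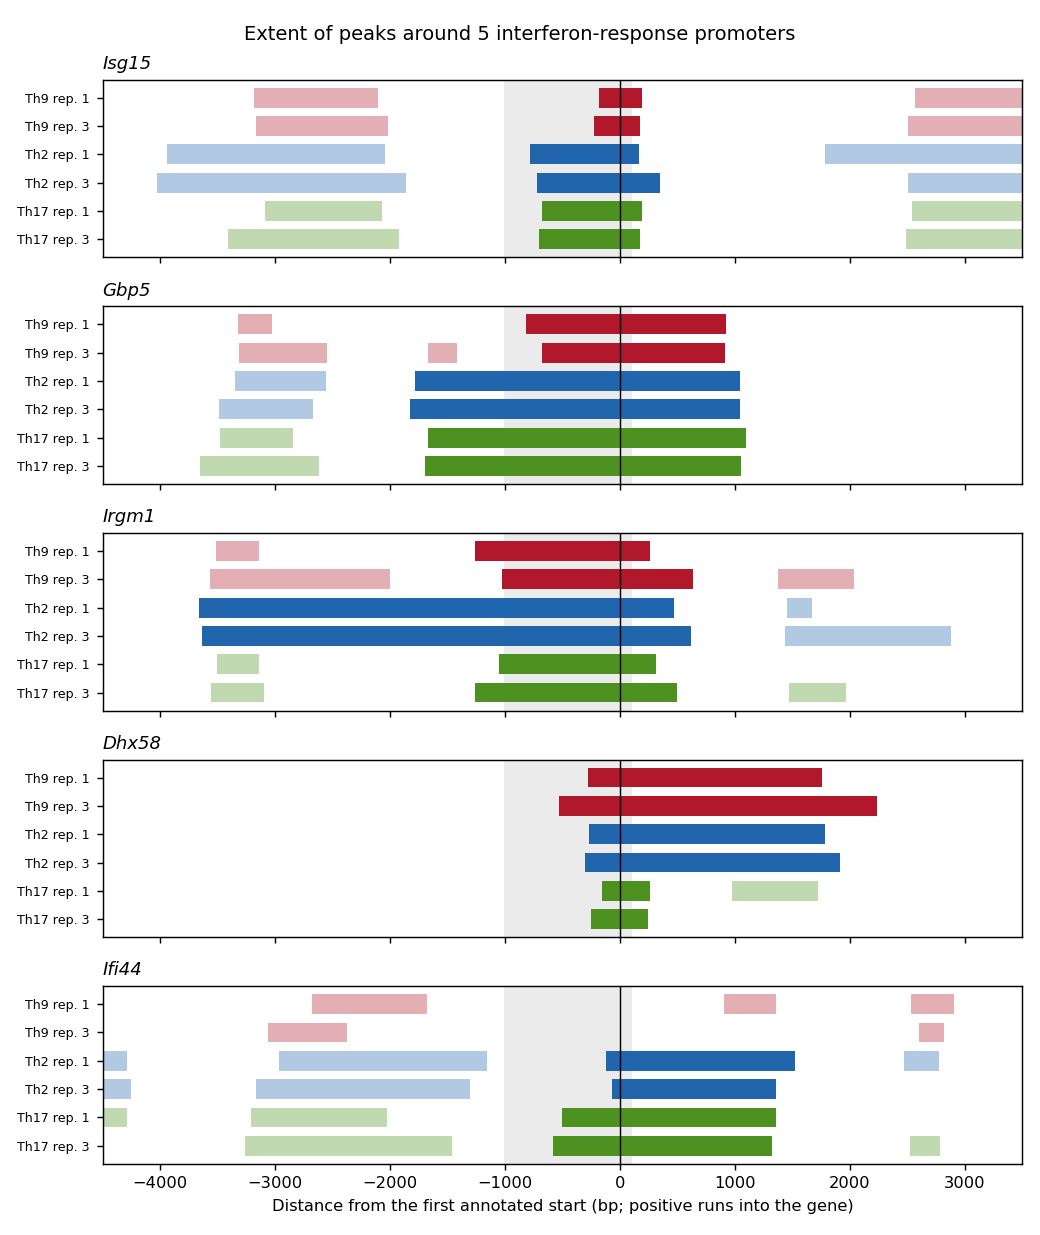
Extent of every peak around the first annotated start of Isg15, Gbp5, Irgm1, Dhx58 and Ifi44, with 1 row per library and color for the subset. The x axis is the distance from that start in bp, dark bars are peaks over the promoter window (grey) and pale bars are other peaks. Th9 is narrow at Isg15 and Gbp5, Th2 is joined upstream at Irgm1, Th17 is narrow at Dhx58, and the Ifi44 window is empty in Th9.

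Above these genes in the pathway, 20 of 25 listed genes were open in all 6 libraries, none differed by calls and none passed the test of strength (smallest adjusted p 0.0827 by limma, for Irf3 between Th2 and Th17). All 6 receptor chains, the 3 kinases Jak1, Jak2 and Tyk2, the 7 transcription factors and the 4 brakes on signalling, such as Socs1, were open. Of the 5 genes for interferons themselves, 4 had no promoter peak, Ifng among them, and Ifna4 had 1 in replicate 1 of Th2. Ifngr1, the binding chain of the IFN-γ receptor, stood at 98.6 to 99.8 over the 6 libraries, and Ifnar1, a chain of the type I receptor, at 95.7 to 99.1. Ifnar2, its partner, stood at 85.5 to 91.7, and Il10rb, which serves the IFN-λ receptor, at 85.8 to 92.0. Stat2, a factor of the type I response, stood at 95.5 to 97.9 over all libraries.

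The width test passed for 2 of the listed receptor chains. Over all fitted genes the share past it was 2.76% for Th9 against Th2 and 1.86% for Th2 against Th17. Both calls were lost with the replicate number as a block, as were those of all other genes. Ifngr2, the signalling chain of the IFN-γ receptor, had peaks of 2432 and 2436 bp in Th9, 3960 and 4165 bp in Th2, and 2466 and 2789 bp in Th17. Th2 was the wide subset, with a log2 difference of -0.74 for Th9 minus Th2 (adjusted p 0.044 by limma). Ifnlr1, the chain specific to IFN-λ, had the weakest promoter of the open pathway genes, at percentiles 70.4 and 66.1 in Th9, against 62.7 and 51.2 in Th2 and 45.6 and 18.3 in Th17. Its peak was 779 and 871 bp wide in Th9, 842 and 748 bp in Th2, and 311 and 277 bp in Th17. The log2 difference of Th2 minus Th17 was 1.44 (adjusted p 0.0387 by limma), and the test of strength for that pair did not pass (adjusted p 0.432 by limma).

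Genes with and without the interferon-response word did not stand equally high, as a description with no test. The 25 open genes that had the word had a median of the mean percentile of 88.7, from 67.6 to 93.6. The 7 open genes that lacked it had a median of 79.1, from 77.8 to 97.2, where the high end was Irf9. The 9 genes with no copy in the window were Irf7, Ifi35, Irf9, Xaf1, Trim25, Oasl2, Ifit2, Ifi44 and Cxcl9.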

How the data were processed

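ATAC-seq peak lists of 6 libraries (2 each of Th9, Th2 and Th17 cells) were analysed, grouped by the labels. The authors trimmed reads (Trim Galore 0.4.3), aligned them to mm10 (Bowtie2), removed duplicates (Picard), left out mitochondrial reads and reads with a mapping quality under 10, and called broad peaks per library with MACS2 (version 2.1.0 per the labels) without input or local background. The calling cutoff was not given in the sources used here. The deposited fold enrichment is a linear ratio averaged over each peak. It was turned into a percentile within its list, because folds of different lists are not on a common scale. The deposited −log10 p and q values served for depth, for lists of equal length and as a filter. The deposited score was not used. The lists hold no read counts, so depth was recovered as the background coverage that gives both the fold and the p-value of flat peaks (5.65 to 17.7).

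Starts came from the basic set of GENCODE M21 and sequence from GRCm38.p6, in Python 3.11.15 with pandas 2.3.3 and pysam 0.24.0. limma 3.58.1 in R 4.3.3 (trend, no block, 3 residual degrees of freedom) was fitted over 12876 genes open in all 6 libraries, the protein-coding genes plus Mx2, Oas1b and Gbp11, which the annotation does not class as coding. The test was run on simulated data first. The members and lists were chosen with earlier results of these data known. Named in full were genes past the test, genes differing by calls, and the 3 highest and 3 lowest by mean percentile. Of the pathway list, genes past the test, the receptor chains and Stat2 were named. A gene of that list and a marker gene are not reported here. Igtp, Xaf1, Oas3, Gbp2, the smallest-p pathway gene and the Cxcl9 and Oas1a peaks were named after their values had been seen. Alternatives were other windows, overlaps, starts, filters and scales, genes not called set to the lowest percentile, a replicate block and each library left out.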

Additional observations from a re-analysis of the deposited data

How the results depend on the processing

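Of the 32 genes open in all 6 libraries, 31 stayed with an overlap of at least 200 bp, 28 with a −log10 q of at least 5 and 18 with a fold of at least 4, where 8922 of all 12876 fitted genes stayed. The genes differing by calls were 2 with an overlap of at least 200 bp (Oasl2, Ifi44), 0 with a −log10 q of at least 5, and 4 with a fold of at least 4 (Isg15, Irgm1, Eif2ak2, Xaf1). With windows of 2000 bp on either side the gene was Cxcl9 in place of Ifi44. The shares of all protein-coding genes differing by calls under these settings are not given here, so these counts are a description only. In promoter strength, the 0 genes called became 1 between Th9 and Th2 with a −log10 q of at least 5 (Gbp2) or lists of equal length (Igtp), 1 between Th9 and Th17 with a fold of at least 4 (Irgm2), and 1 between Th2 and Th17 with lists of equal length or quantile-normalized log2 fold (Xaf1). Leaving out each library gave 0 to 1 between Th9 and Th2 (Gbp2 without replicate 1 of Th9, Oas3 without replicate 3 of Th9), 0 to 1 between Th9 and Th17 (Oas3 without replicate 3 of Th9) and 0 between Th2 and Th17. Oas3 between Th9 and Th17 changed from -0.63 to 0.03 with windows of 2000 bp on either side, where the stronger peak inside the gene entered the window.

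By width, the 3 genes called between Th9 and Th2 became 2 with all annotated starts (Gbp5 lost, adjusted p 0.626 by limma), 1 with a fold of at least 4 and 0 to 2 when each library was left out, where a subset reduced to 1 library was assumed to vary like the others. The 1 gene between Th9 and Th17 became 0 with a −log10 q of at least 5, with a fold of at least 4 and whichever library was left out. The 2 genes between Th2 and Th17 became 1 with a −log10 q of at least 5, 0 with a fold of at least 4, and 0 to 1 when each library was left out. Dhx58 was no longer open in all 6 libraries with a −log10 q of at least 5 or a fold of at least 4, so it was not tested there. The same held for Isg15 and Irgm1 with a fold of at least 4. No alternative in which the gene was tested turned the direction of the width difference of Isg15, Gbp5, Irgm1 or Dhx58. Over all genes, the counts called by strength ranged over the alternatives from 0 to 680 between Th9 and Th2 (0 in the reported fit, 680 with lists of equal length), from 2 to 133 between Th9 and Th17 (23) and from 1 to 222 between Th2 and Th17 (33). By width they ranged from 0 to 368 (356), 0 to 63 (62) and 0 to 247 (240). The cause of the other changes was not tested.

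With the replicate number as a block (replicate block), 0 of the 32 genes and 0 of all genes were called by width in each of the 3 comparisons, and by strength 0 of the 32 genes but 34, 123 and 141 of all genes. The differences of replicate 1 minus replicate 3 correlated at 0.144 (Th9 and Th2), -0.051 (Th9 and Th17) and 0.116 (Th2 and Th17). Nothing stated what the numbers mark, and these correlations cannot decide whether a number marks a shared batch. Background coverage was lower in replicate 1 of each subset, at 5.65 in Th9, 11.2 in Th2 and 14.4 in Th17. In replicate 3 it was 12.1, 15.2 and 17.7.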

Other observations

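Among 28 further genes of the same families, 23 were open in all 6 libraries, 2 in none (Oas1g and Ifitm1) and 3 in some. Ifi47, an immunity-related GTPase on chromosome 11, passed the test of strength between Th2 and Th17, as did 0.256% of all fitted genes. It stood at 84.2 and 76.2 in Th9, against 89.0 and 91.6 in Th2 and 65.7 and 67.9 in Th17, with Th2 the highest and Th17 the lowest. The difference of Th2 minus Th17 was 0.87 in normal score (adjusted p 0.0343 by limma). Whether Ifi47 also passed under the alternatives is not given here. Tgtp2, a T-cell GTPase of the same chromosome, had the pattern of Ifi44, with no peak in Th9, percentiles of 34.4 and 21.4 in Th2 and percentiles of 13.7 and 49.7 in Th17.

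Gbp11 passed the width test between Th9 and Th2 and between Th2 and Th17, as did 2.76% and 1.86% of all fitted genes. With the replicate number as a block it did not pass. Its peak was 308 and 380 bp wide in Th9, 1931 and 2070 bp in Th2, and 646 and 442 bp in Th17. The log2 difference was -2.55 for Th9 minus Th2 (adjusted p 0.022 by limma) and 1.90 for Th2 minus Th17 (adjusted p 0.045 by limma). Genes of these families have close copies, and how far reads of copies were left out by the mapping-quality filter was not tested. Ifi47, Tgtp2 and Gbp11 were named after their values had been seen.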
